A study of Mus musculus with 6 samples.

Results

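The spectrin and ankyrin membrane skeleton of the newborn mouse lens was followed through 9 genes, which encode spectrins (Sptb, Sptbn1 and Sptan1), ankyrins (Ank1, Ank2 and Ank3), 4.1 proteins (Epb41 and Epb41l1) and an adducin (Add1). They were taken by gene symbol from a table of 22298 genes, in which Epb41 and Epb41l1 stand under older symbols, and all 9 passed the filter on low values. RNA from whole ocular lenses at postnatal day 0 was sequenced in 3 Fyco1-/- libraries and 3 wild-type (WT) libraries, lettered A, B and C in each genotype, each made from 10 pooled lenses of mice labelled C57BL/6. Fyco1 encodes an adaptor that links autophagic vesicles to microtubule motors, and loss of its function causes cataract in people. The labels do not describe the Fyco1 allele or how it was made. Values are FPKM, fragments per kilobase of gene scaled to a library total, so levels of different genes can be set side by side per length. Which total was used is not given in the sources used here.

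Spectrin is a long rod built of alpha and beta subunits, and its tetramers form a net under the plasma membrane. Short actin filaments, held by 4.1 proteins, adducin and tropomodulin, tie the ends of the rods together, while ankyrins bind beta spectrin to proteins that span the membrane. The net is best known from red blood cells, where inherited faults in beta spectrin or ankyrin-1 give fragile cells, and in lens fibre cells it lines the membrane and helps to keep the cells in hexagonal order.

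Fyco1 transcripts had 4.61, 4.59 and 4.87 FPKM in Fyco1-/- A to C and 5.40, 5.21 and 5.11 FPKM in WT A to C. They differed by -0.15 on the log2 scale (SE 0.08, limma adjusted p = 0.273), so transcript level does not check the genotype labels. Depth, read from the smallest increments of FPKM, came to an estimated 18.8 to 19.5 M reads in Fyco1-/- libraries and 17.1 to 20.04 M reads in WT libraries. Lens fibre genes dominated, with a sum over 13 markers of 254154 to 263282 FPKM in Fyco1-/- and 250867 to 259516 FPKM in WT libraries. WT B stood apart in muscle transcripts, with a summed 53.9 FPKM over 10 muscle genes, against 3.33 to 4.32 FPKM in Fyco1-/- libraries and 8.94 and 7.70 FPKM in WT A and C.

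Of the 9 skeleton genes, 4 changed between genotypes at a limma adjusted p under 0.05, 2 of them higher (Sptan1 and Epb41) and 2 lower (Sptb and Ank1) in Fyco1-/- lenses. Of all 12001 genes tested, 8.43% changed, 3.42% higher and 5.02% lower. The median log2 fold change was 0.04 over the 9 genes and -0.04 over all genes tested. Sptb moved by far the most of the 9, to about the level of Add1, and the rest moved by less than 1.36-fold. In 8 of the 9 genes no Fyco1-/- library overlapped a WT library, 4 higher and 4 lower, which held for 29.7% of all genes tested. Leaving out single libraries left Sptb called each time and 1 or 2 of the 9 genes called in all. The p-values measure the spread among these libraries of pooled lenses, and in whole lenses fewer cells of a type and less RNA per cell cannot be told apart.

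**Figure D1:**
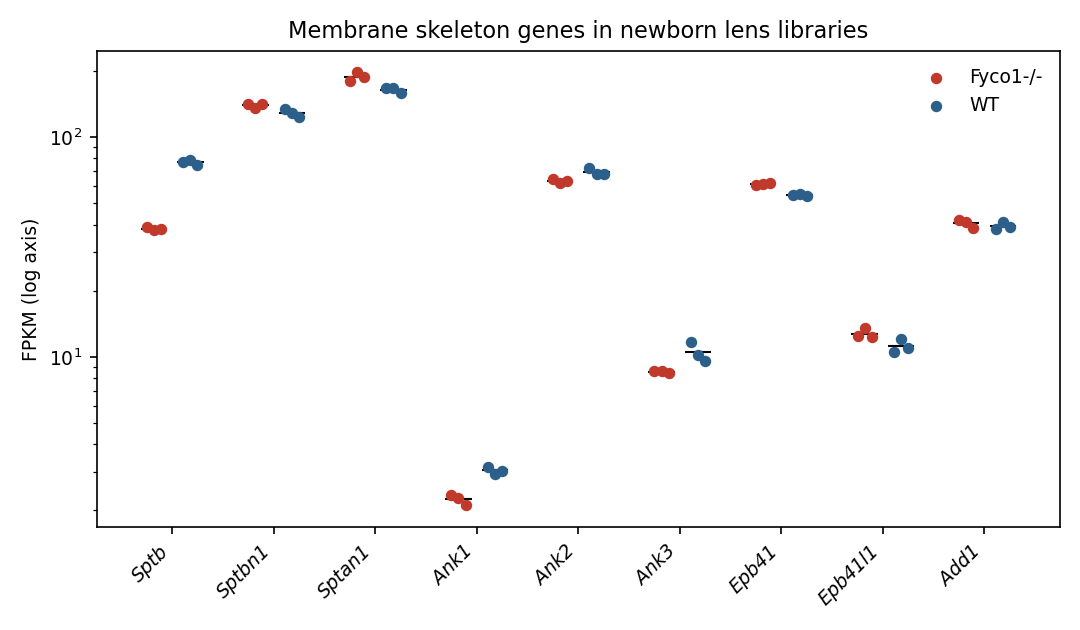
FPKM (log axis) of the 9 skeleton genes, one point per library, with Fyco1-/- libraries on the left and WT libraries on the right of each gene and short lines at the means (n = 3 each). Sptb stands at 37.9 to 38.9 FPKM in Fyco1-/- and at 74.6 to 78.9 FPKM in WT libraries, and the other genes lie much closer between genotypes.

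The sequences before the starts of Sptb, of its alpha partner Sptan1 and of Epb41 are shown because these genes changed in different directions and have an entry among RefSeq promoters of GRCm38.p6. Each is the 250 bases directly upstream of a RefSeq start, read 5′ to 3′ on the gene's strand. Capitals mark matches on either strand to 7 short motifs. The searched motifs were the Sp box GGGCGG, the Klf box CACCC, the Sox core ACAAT, the Maf half-site TGCTGA, the heat shock core GAANNTTC, the GATA core GATAA and the antioxidant response core TGACNNNGC.
Sptb, chr12:76710548-76710797, minus strand: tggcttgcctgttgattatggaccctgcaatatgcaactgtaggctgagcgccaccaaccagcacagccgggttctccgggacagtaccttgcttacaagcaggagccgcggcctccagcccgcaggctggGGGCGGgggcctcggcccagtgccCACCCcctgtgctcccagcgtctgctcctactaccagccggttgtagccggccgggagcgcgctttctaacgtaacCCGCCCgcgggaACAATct
Sptan1, chr2:29965310-29965559, plus strand: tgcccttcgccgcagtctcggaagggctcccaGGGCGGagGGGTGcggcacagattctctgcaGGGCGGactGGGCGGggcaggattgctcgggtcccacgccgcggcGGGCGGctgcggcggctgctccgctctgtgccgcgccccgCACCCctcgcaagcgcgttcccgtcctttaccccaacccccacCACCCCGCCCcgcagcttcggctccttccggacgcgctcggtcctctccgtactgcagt
Epb41, chr4:132075314-132075563, minus strand: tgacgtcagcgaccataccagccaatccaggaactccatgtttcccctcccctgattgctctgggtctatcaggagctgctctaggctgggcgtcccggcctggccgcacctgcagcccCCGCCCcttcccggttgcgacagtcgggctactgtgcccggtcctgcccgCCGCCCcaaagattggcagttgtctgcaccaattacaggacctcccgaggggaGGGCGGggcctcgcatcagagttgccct

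The Sptb window is 65.2% G and C. Relative to the start, it holds Sp boxes that begin at -119 on the strand shown and at -19 on the opposite strand. It also holds a Klf box at -95 and a Sox core at -7. Of 32851 RefSeq windows of the same length, 32.7% hold an Sp box, 52.0% a Klf box and 27.7% a Sox core. The letters of the Maf half-site (in 16.1% of windows), the heat shock core (6.69%), the GATA core (22.6%) and the antioxidant response core (10.2%) do not occur in it. The Sptan1 window, 73.6% G and C, holds 5 Sp boxes and 3 Klf boxes, with the Sp box at -55 overlapping the Klf box at -59. Epb41 has 3 windows, and the one shown, before the start farthest upstream, is 65.2% G and C and holds 3 Sp boxes and no other motif of the set. Of its other windows, one holds an antioxidant response core and the other a Sox core and 2 Sp boxes. Entries exist for 7 of the 9 genes, in 15 windows, and Ank1 and Ank3 have none there. These matches describe letters and were not tested for binding of any factor.

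Sptb encodes the beta spectrin first known from red cells, and its transcripts fell to about the level of Add1 in Fyco1-/- lenses. It had 38.9, 37.9 and 38.2 FPKM in Fyco1-/- A to C, against 77.4, 78.9 and 74.6 FPKM in WT A to C. Every Fyco1-/- library lay far below every WT library, and both groups were tight. The mean was 38.3 ± 0.529 FPKM in Fyco1-/- and 77.0 ± 2.19 FPKM in WT lenses (SD, n = 3 each), a ratio of 0.498. Sptb changed by -0.996 on the log2 scale (SE 0.04, 95% interval -1.09 to -0.90, limma adjusted p = 9.32e-07), the fifth smallest p among the 12001 genes tested. Of the genes called lower, 42 fell at least as far, Sptb among them. Under 15 other settings the log2 fold change stayed between -1.02 and -0.95. Sptb (ENSMUSG00000021061) lies on the minus strand of chromosome 12, from 76580488 to 76710547 in GRCm38. Its exons span 12147 bases, and its values rest on an estimated 8811 to 19214 reads per library.

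Sptbn1 encodes the widely expressed beta-II spectrin, and Sptan1 the alpha-II spectrin that pairs with the beta subunits outside red cells. Sptan1 had 179.6, 197 and 188 FPKM in Fyco1-/- A to C, against 167, 167 and 159 FPKM in WT A to C. It was the most abundant of the 9 genes in both genotypes and higher in every Fyco1-/- library than in any WT library. Its mean was 188 ± 8.78 FPKM in Fyco1-/- and 164 ± 4.74 FPKM in WT lenses (SD, n = 3 each). The rise of 0.20 on the log2 scale (SE 0.04, 95% interval 0.10 to 0.29, limma adjusted p = 0.0199) was lost when Fyco1-/- B (adjusted p = 0.075), Fyco1-/- C (0.058), WT A (0.0505) or WT C (0.0663) was left out, and with no filter on low values (0.0593). Sptan1 (ENSMUSG00000057738) lies on the plus strand of chromosome 2, from 29965560 to 30031451. Estimated reads per library ran up to 51381 for Sptan1, and were at least 2076 for every skeleton gene other than Ank1.

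Sptbn1 had 142, 135 and 142 FPKM in Fyco1-/- A to C and 134, 129 and 123 FPKM in WT A to C. The libraries do not overlap, but the log2 fold change of 0.12 (SE 0.04, 95% interval 0.03 to 0.21) did not pass the test (limma adjusted p = 0.112), nor did it under any of the 15 other settings. Sptbn1 (ENSMUSG00000020315) lies on the minus strand of chromosome 11, from 30099395 to 30268175, and 134 of its 17492 exon bases overlap the antisense transcript Gm29237.

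With Sptb lower and Sptbn1 not, the balance between the transcripts of these beta spectrins differed between genotypes. Of the summed FPKM of Sptb and Sptbn1, Sptb made up 21.6%, 21.9% and 21.2% in Fyco1-/- A to C, against 36.6%, 37.99% and 37.7% in WT A to C. The mean share was 21.5% ± 0.323 in Fyco1-/- and 37.4% ± 0.711 in WT lenses (SD, n = 3 each), and the groups do not overlap. Such shares do not depend on how libraries were scaled to each other.

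**Figure D2:**
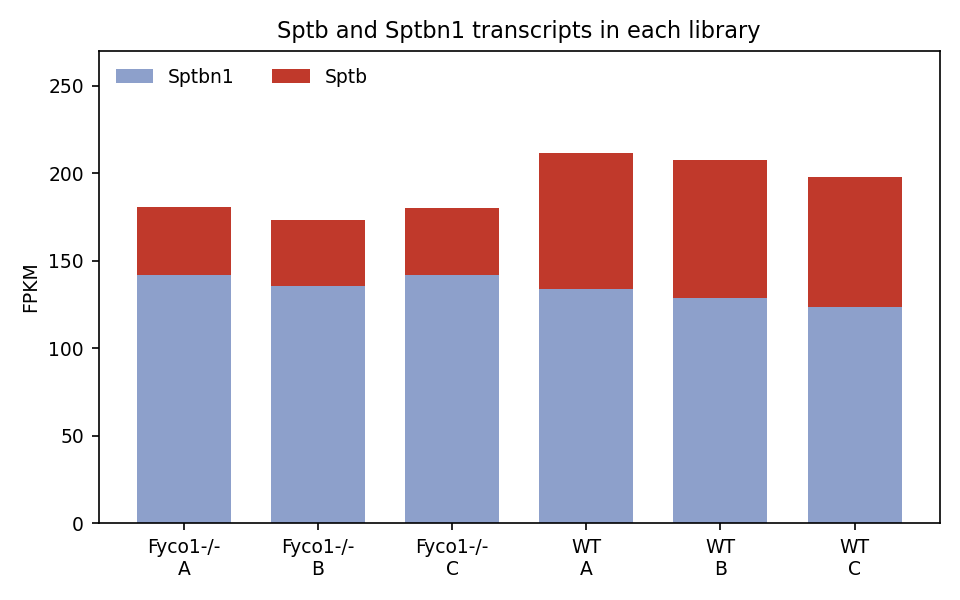
FPKM of Sptbn1 and Sptb stacked for each library, with Fyco1-/- libraries on the left and WT libraries on the right. The Sptb layer is thinner in every Fyco1-/- library, at 37.9 to 38.9 FPKM against 74.6 to 78.9 FPKM in WT libraries, and the Sptbn1 layer is not.

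Summed FPKM of Sptb and Sptbn1 came to 178 ± 4.04 in Fyco1-/- and 206 ± 6.95 in WT lenses, without overlap. The ratio of Sptan1 to this sum was 0.995, 1.14 and 1.05 in Fyco1-/- A to C, against 0.791, 0.804 and 0.803 in WT A to C. WT libraries thus lay within a narrow band, below every Fyco1-/- library. The ratio of Sptan1 to Sptbn1 was 1.35 ± 0.0957 in Fyco1-/- and 1.28 ± 0.0255 in WT lenses, and its libraries overlapped. The ratio of Sptb to Sptbn1 was 0.275 ± 0.00525 in Fyco1-/- and 0.599 ± 0.0181 in WT lenses (SD, n = 3 each). No test was run on these shares and ratios.

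Among the ankyrins, Ank2 was the most abundant and Ank1 the least, and all 3 had lower values in Fyco1-/- lenses, of which only Ank1 passed the test. Ank1 encodes the ankyrin of red cells, also found in muscle and nerve. It had 2.35, 2.28 and 2.11 FPKM in Fyco1-/- A to C, against 3.17, 2.93 and 3.03 FPKM in WT A to C, with no overlap. The change of -0.37 on the log2 scale (SE 0.10, 95% interval -0.58 to -0.16, limma adjusted p = 0.0410) was lost with any single library left out (adjusted p = 0.0609 to 0.127), under quantile normalization (0.0713), with no filter on low values (0.0822) and with the letters A to C as a replicate block (0.0617). Ank1 (ENSMUSG00000031543) lies on the plus strand of chromosome 8, from 22974844 to 23150497, and its values rest on an estimated 541 to 794 reads per library. The antisense transcript Gm15816 overlaps 862 of its 13527 exon bases, and since the handling of strand is not given in the sources used here, reads from both cannot be told apart.

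Ank2 encodes ankyrin-B, which in mouse lens fibre cells holds the cell adhesion protein NrCAM and other membrane proteins to the skeleton. It had 64.2, 62.1 and 63.4 FPKM in Fyco1-/- A to C and 72.1, 68.0 and 68.2 FPKM in WT A to C. The libraries do not overlap, and the log2 fold change of -0.13 (SE 0.04, 95% interval -0.23 to -0.04) did not pass the test (limma adjusted p = 0.0827), although it did under quantile normalization (adjusted p = 0.0449). Ank2 (ENSMUSG00000032826) lies on the minus strand of chromosome 3, from 126921612 to 127499350, and 182 of its 35004 exon bases overlap the antisense transcript Gm16958.

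Ank3 encodes ankyrin-G, known for gathering sodium channels in neurons and for building lateral membranes in epithelia. It had 8.61, 8.63 and 8.47 FPKM in Fyco1-/- A to C and 11.7, 10.2 and 9.55 FPKM in WT A to C. WT libraries were spread more widely than Fyco1-/- libraries, whose 3 values lie close together below them. The difference was -0.27 on the log2 scale (SE 0.08, 95% interval -0.45 to -0.10, limma adjusted p = 0.0647), and it passed the test only without WT C (adjusted p = 0.0401). Ank3 (ENSMUSG00000069601) lies on the plus strand of chromosome 10, from 69398773 to 70027438.

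Summed FPKM of the 3 ankyrins came to 74.1 ± 1.08 in Fyco1-/- and 83.0 ± 3.45 in WT lenses (SD, n = 3 each), without overlap. Ank2 made up 85.4% ± 0.331 of that sum in Fyco1-/- and 83.7% ± 0.783 in WT lenses. Ank1 made up 3.03% ± 0.161 in Fyco1-/- and 3.67% ± 0.0780 in WT lenses, and the share of Ank3 overlapped between genotypes. The makeup of the ankyrins thus moved by less than 2 percentage points, where that of Sptb and Sptbn1 moved by more than 10.

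Of the 3 genes for proteins at the actin nodes of the skeleton, Epb41 rose in Fyco1-/- lenses, while Epb41l1 and Add1 did not pass the test. Epb41 encodes protein 4.1R, which locks spectrin to actin. It had 60.4, 61.0 and 61.6 FPKM in Fyco1-/- A to C, against 54.3, 55.3 and 53.8 FPKM in WT A to C, and the groups do not overlap. The rise of 0.16 on the log2 scale (SE 0.04, 95% interval 0.08 to 0.25, limma adjusted p = 0.0310) was lost with any single library left out (adjusted p = 0.0518 to 0.0981), with no filter on low values (0.0638) and under the replicate block (0.0586). Epb41 (ENSMUSG00000028906) lies on the minus strand of chromosome 4, from 131923413 to 132075321, and 233 of its 15942 exon bases overlap other transcripts.

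Epb41l1 encodes 4.1N, a relative of protein 4.1R best known from neurons. It had 12.5, 13.5 and 12.3 FPKM in Fyco1-/- A to C and 10.6, 12.1 and 10.99 FPKM in WT A to C. Its log2 fold change of 0.18 (SE 0.07, 95% interval 0.02 to 0.34) did not pass the test (limma adjusted p = 0.153). Add1 encodes alpha-adducin, which caps actin filaments and brings spectrin to them. It had 41.9, 41.3 and 38.6 FPKM in Fyco1-/- A to C and 38.2, 41.1 and 38.9 FPKM in WT A to C. Add1 was the one gene of the 9 whose genotypes overlapped, with a log2 fold change of 0.04 (SE 0.05, 95% interval -0.07 to 0.16, limma adjusted p = 0.667). Epb41l1 (ENSMUSG00000027624) lies on chromosome 2, from 156420909 to 156543214, and Add1 (ENSMUSG00000029106) on chromosome 5, from 34573664 to 34632308, both on the plus strand.

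**Figure D3:**
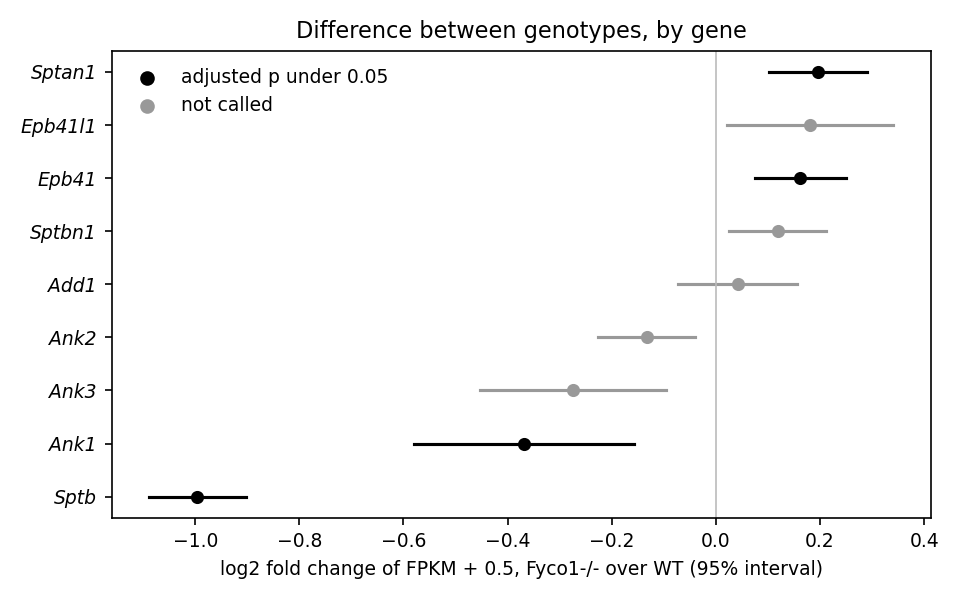
Log2 fold change of FPKM + 0.5, Fyco1-/- over WT, for each skeleton gene with its 95% interval from limma, in black where the adjusted p was under 0.05 and in grey where it was not. Sptb stands alone at -0.996, and the other 8 genes lie between -0.37 and 0.20.

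The order of levels changed at 1 gene above all. In Fyco1-/- lenses the order was Sptan1, Sptbn1, Ank2, Epb41, Add1, Sptb, Epb41l1, Ank3 and Ank1, with Add1 and Sptb overlapping. In WT lenses it was Sptan1, Sptbn1, Sptb, Ank2, Epb41, Add1, Epb41l1, Ank3 and Ank1, with Epb41l1 and Ank3 overlapping. Sptb thus ranked 6 in Fyco1-/- and 3 in WT lenses, and neighbours other than those named did not overlap.

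In the authors' deposited table, from DESeq2, 7 of the 9 genes had an adjusted p under 0.05, 4 higher and 3 lower, where 9.37% of the 13066 genes with a value had one. In the authors' deposited table Sptb has a log2 fold change of -0.94 (adjusted p = 1.32e-132), Sptan1 one of 0.24 (5.96e-07), Epb41 one of 0.21 (5.5e-05) and Ank1 one of -0.35 (0.00644). The 3 genes called in the authors' deposited table but not by limma were Sptbn1 (log2 fold change 0.17, adjusted p = 0.000619), Ank3 (-0.23, 0.00588) and Epb41l1 (0.23, 0.0166). Both sources gave each of the 9 genes the same sign.

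Other genes of the spectrin, adducin and 4.1 families had 1 member lower and none higher among 7 tested (8.43% called over all genes tested). Their median log2 fold change was -0.09. Epb41l2, a 4.1 relative, had 69.2 ± 0.959 FPKM in Fyco1-/- and 81.6 ± 3.76 FPKM in WT lenses (log2 fold change -0.23, limma adjusted p = 0.00987), opposite in sign to Epb41.

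Of 13 tested junctional complex and red cell skeleton genes, only Tmod2, a tropomodulin that caps actin filaments, was called (8.43% over all genes tested). It had 1.249 ± 0.183 FPKM in Fyco1-/- and 2.04 ± 0.164 FPKM in WT lenses (log2 fold change -0.54, limma adjusted p = 0.0241). That call was lost when any library but Fyco1-/- A was left out (adjusted p = 0.058 to 0.0808) and with no filter on low values (0.0615). Tmod2 lies on the chromosome of Fyco1, chromosome 9, from 75565621 to 75611325. The median log2 fold change of the 13 genes was -0.05. Of 20 tested membrane proteins that bind ankyrin or the skeleton, limma called 0, with 7 at an unadjusted p under 0.05, 4 in the authors' deposited table and a median of 0.01. Of all genes tested, 24.4% had an unadjusted p under 0.05, and the authors' deposited table called 9.37% of its genes with a value. Nrcam, which encodes the ankyrin-binding adhesion protein named above, had 56.2 ± 1.94 FPKM in Fyco1-/- and 50.5 ± 2.23 FPKM in WT lenses (log2 fold change 0.15, limma adjusted p = 0.0860).

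Among 12 genes of the fibre cell cytoskeleton that meets the membrane skeleton, 1 rose and 2 fell (3.42% and 5.02% over all genes tested). Their median log2 fold change was -0.05. Prx encodes periaxin, a scaffold that in mouse lens fibres is found with ankyrin-B and spectrin, and it had 59.1 ± 1.84 FPKM in Fyco1-/- and 31.3 ± 0.671 FPKM in WT lenses. Its log2 fold change of 0.91 (SE 0.05, limma adjusted p = 2.21e-06) was close in size to that of Sptb and opposite in sign. Bfsp2 encodes phakinin of the beaded filament and had 78.3, 81.2 and 116 FPKM in Fyco1-/- A to C, against 1688, 1757 and 1764 FPKM in WT A to C (log2 fold change -4.26, limma adjusted p = 0.000141). Bfsp2 lies on chromosome 9, from 103424924 to 103480420, as does Fyco1, from 123789500 to 123851899. The strain in which the Fyco1 allele was made is not given in the sources used here, and the part of strain sequence in any of these results was not tested. Vim, the vimentin gene, fell by 0.16 on the log2 scale (limma adjusted p = 0.0252), a call lost without Fyco1-/- A, Fyco1-/- C, WT A or WT C (adjusted p = 0.0551 to 0.104), under median-of-ratios scaling (0.215), with no filter on low values (0.0661) and under the replicate block (0.0732).

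Of 8 tested proteases that cut spectrin and their inhibitor, 1 fell and none rose (5.02% and 3.42% over all genes tested). Their median was -0.11. Capn1, the calcium-activated calpain 1, had 2.92 ± 0.106 FPKM in Fyco1-/- and 4.11 ± 0.496 FPKM in WT lenses (log2 fold change -0.43, limma adjusted p = 0.0286), a call lost when any library but WT A was left out (adjusted p = 0.0512 to 0.107) and with no filter on low values (0.0745). Of 12 tested regulators of spectrin and ankyrin assembly, limma called 0, with 2 at an unadjusted p under 0.05 (24.4% over all genes tested). The authors' deposited table called 1 (9.37% of its genes with a value), and the median of the regulators was 0.02. The most abundant of them was Calm3, a calmodulin gene, with 72.2 FPKM in Fyco1-/- and 76.8 FPKM in WT lenses.

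Markers of other cells that express Sptb or Ank1 were set beside these results. Red cell transcripts varied between libraries and overlapped between genotypes, with a sum of 110.5 to 248 FPKM in Fyco1-/- and 90.04 to 202 FPKM in WT libraries over 13 genes. Hba-a1 had 163, 54.6 and 63.1 FPKM in Fyco1-/- A to C and 61.3, 38.0 and 92.7 FPKM in WT A to C, although reads of this gene and its near-identical copy may be divided between them. Of 7 red cell genes tested limma called 0, with 0 at an unadjusted p under 0.05 (24.4% over all genes tested). The authors' deposited table called 0 of them (9.37% of its genes with a value). The red cell genes Slc4a1, Epb42, Rhag, Klf1 and Hemgn were at most 0.137 FPKM in every library, several of them listed at 0. Others of the list were higher, with Alas2 at 0.491 to 1.02 FPKM and Hbb-bs at 33.9 to 83.3 FPKM over the libraries.

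**Figure D4:**
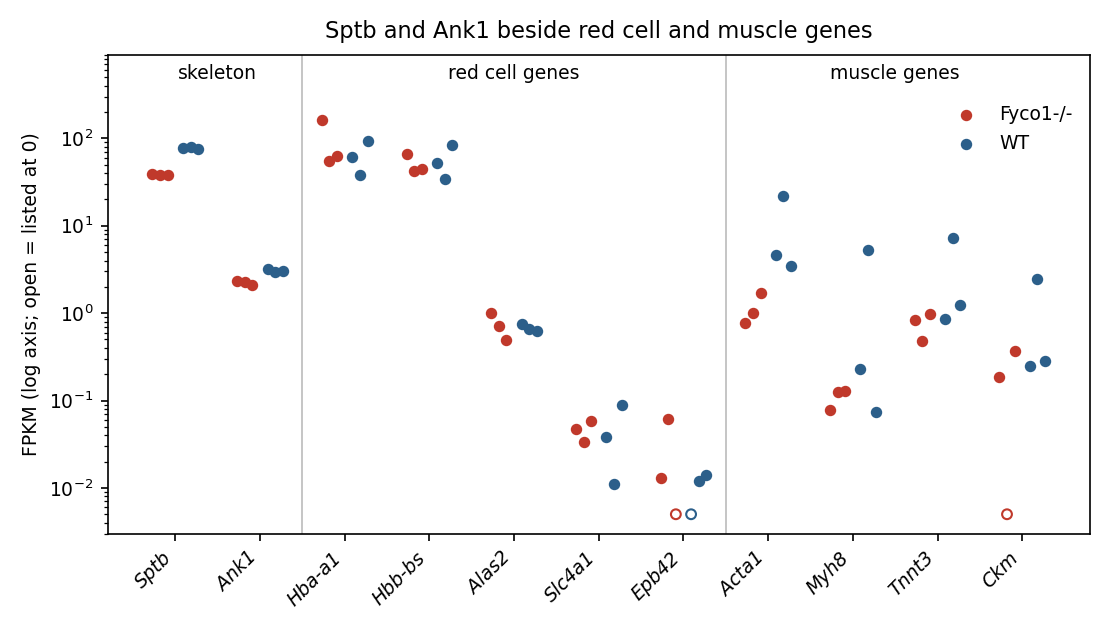
FPKM (log axis) of Sptb and Ank1 beside red cell and muscle genes, one point per library, Fyco1-/- left of WT for each gene, with open circles for values listed at 0. Haemoglobin genes overlap between genotypes, Slc4a1 and Epb42 stay under 0.1 FPKM, and WT B carries the highest muscle values, with Acta1 at 21.7 FPKM.

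Muscle genes had lower values in Fyco1-/- than in WT lenses, with all 7 tested genes negative and a median log2 fold change of -1.13, much of it carried by WT B. Without WT B, 3 of the 7 (Myh8, Ckm and Des) fell below the filter on low values. They passed that filter only through WT B, so a negative sign was favoured by how they entered the test. Among them, Des was lower in every Fyco1-/- library than in WT A and WT C, while Myh8 and Ckm overlapped. The other 4 stayed negative without WT B, with a median of -0.61, against -1.37 for the same 4 with all libraries. WT A or WT C overlapped Fyco1-/- libraries in 3 of the 7 genes. With all libraries limma called 0 of the 7, with 1 at an unadjusted p under 0.05 (24.4% over all genes tested). The authors' deposited table called 0 of them (9.37% of its genes with a value). Acta1, the actin of skeletal muscle, had 0.778, 1.001 and 1.69 FPKM in Fyco1-/- A to C and 4.61, 21.7 and 3.49 FPKM in WT A to C, and was called without WT B (log2 fold change -1.48, limma adjusted p = 0.00749) and with no robust moderation (0.0337). Without WT B the log2 fold change of Sptb was -0.98 (limma adjusted p = 1.11e-05) and Sptan1 stayed called (0.0453), while the calls of Ank1 (0.0908) and Epb41 (0.0685) were lost. The part of muscle RNA in these results was not tested.

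Lens epithelium markers moved with genotype, with 6 of 11 tested lower and none higher (5.02% and 3.42% over all genes tested). Their median log2 fold change was -0.26. Their sum over 13 genes was 579 to 613 FPKM in Fyco1-/- and 703 to 772 FPKM in WT libraries. Itga6, the integrin alpha 6 gene, had 33.9 ± 1.88 FPKM in Fyco1-/- and 55.2 ± 2.01 FPKM in WT lenses (limma adjusted p = 4.97e-05). Sfrp1, a Wnt antagonist, had 244 FPKM in Fyco1-/- and 285 FPKM in WT lenses (limma adjusted p = 0.00185), and the glucose transporter gene Slc2a1 had 115 and 149 FPKM in Fyco1-/- and WT lenses (limma adjusted p = 0.00408). Of 13 fibre cell markers, 1 fell (5.02% over all genes tested) and the median was 0.04. It was the gamma-S crystallin gene Crygs, and its call was lost under 8 of 14 other settings. The 13 had 5 at an unadjusted p under 0.05 (24.4% over all genes tested). The authors' deposited table called 4 of the 13 (9.37% of its genes with a value). Of the 13, 4 had a negative log2 fold change. Among these was Lgsn, uncalled, with 3.09 ± 1.71 FPKM in Fyco1-/- and 9.02 ± 1.05 FPKM in WT lenses (log2 fold change -1.52, limma adjusted p = 0.0644), without overlap. The part of the epithelium in the fall of Sptb was not tested. Neuron and retina markers (4 tested) and vessel and blood markers (9 tested) had 0 called by limma. They had 2 and 1 at an unadjusted p under 0.05 (24.4% over all genes tested). The authors' deposited table called 1 and 0 (9.37% of its genes with a value). The neuron and retina genes summed to 7.97 to 9.93 FPKM in Fyco1-/- and 9.23 to 10.3 FPKM in WT libraries. The vessel and blood genes summed to 40.2 to 42.8 FPKM in Fyco1-/- and 39.9 to 64.6 FPKM in WT libraries. WT B gave the highest of these sums, with 23.1 FPKM from Lyz2, which passed the filter on low values only through that library.

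Predicted, clone and microRNA names were set aside to find the genes whose log2(FPKM + 0.5) followed that of Sptb most closely over the 6 libraries. These were Lgr4 (Pearson r = 0.999), Peg10 (0.999), Mthfd1l (0.999), Rpl29 (0.998) and Tmbim1 (0.998). Among all genes tested, with no name set aside, 28 had an r of at least 0.99. Since the libraries fall into 2 genotypes, the r describes mainly a shared difference between them. Lgr4, a receptor for R-spondins, had 14.2 FPKM in Fyco1-/- and 17.9 FPKM in WT lenses, and Mthfd1l, a mitochondrial folate enzyme, had 11.9 and 20.02 FPKM in Fyco1-/- and WT lenses. Peg10, an imprinted gene derived from a retrotransposon, had 0.818 and 1.52 FPKM, and Tmbim1 1.22 and 2.41 FPKM, in Fyco1-/- and WT lenses. Rpl29, a ribosomal protein gene, had 116 FPKM in Fyco1-/- and 637 FPKM in WT lenses and lies on chromosome 9, from 106429454 to 106431568.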

How the data were processed

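Per the labels, total RNA of pooled newborn lenses went into NEB Next Ultra libraries that were read from both ends. Per the submitters' processing notes, the authors aligned reads with STAR 2.5 to GRCm38/mm10, counted them with HTSeq 0.6.1 and deposited FPKM values per library. The gene annotation, strand setting and scaling total are not given in the sources used here. The authors also deposited a log2 fold change, a p-value and an adjusted p-value from DESeq2 for each gene. No read counts were used here, so depth is an estimate from steps between small FPKM values with GENCODE M21 exon lengths (51.1% of 32768 values lay within 0.05 of a whole read), and no counting intervals are given.

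Testing was limited to the 12001 genes whose FPKM averaged 0.5 or more. A limma 3.58.1 model (R 4.3.3) of log2(FPKM + 0.5) had genotype alone as its term and used trended, robust variance moderation. Calls needed a two-sided Benjamini-Hochberg adjusted p under 0.05 over all genes tested. Fold changes on that scale understate those of low genes. An exact permutation test of 3 against 3 cannot go below 0.1 and was not used. The steps were tested on simulated data. The members and lists were chosen with earlier results of these data known. Named genes are the 9 members, Fyco1, and up to 4 called genes of each list by p (or its 2 most abundant where none was called). Also named are the 5 genes most correlated with Sptb, predicted, clone and microRNA names set aside. Other genes named in the text, such as Nrcam and the red cell genes other than haemoglobin genes, were added after their values were seen. Some genes of the lists are not reported here and were left out of the counts, medians and sums of their lists, and the share of Sptb is therefore over Sptb and Sptbn1 alone. Of 165 listed genes, 5 were not found by symbol or synonym. Symbols of 93.2% of the table matched 1 gene of GENCODE M21, and 7 members matched by symbol and 2 by a RefSeq synonym. The longest transcript of each member was searched by blastn 2.17.0, at 95% identity over at least 100 bases. Those of Sptbn1 and Ank1 had a near-identical transcript of another gene, in each case the antisense transcript that overlaps the member. Other transcripts of the members were not searched. Alternatives changed 1 choice at a time: the pseudocount (0.1 or 1), the filter, the scaling (quantile, median of ratios, 16 crystallins left out), no robust moderation, a replicate block, and each library left out.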

Additional observations from a re-analysis of the deposited data

How the results depend on the processing

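Under the 15 other settings none of the 9 skeleton genes changed sign, and Sptb, Sptbn1, Epb41l1 and Add1 kept their side of the threshold. With no filter on low values limma called 568 genes (246 higher, 322 lower) and 1 skeleton gene, Sptb, against 1012 (410 higher, 602 lower) and 4. Leaving out single libraries gave 611 to 870 called genes (264 to 334 higher, 325 to 538 lower) and 1 or 2 skeleton genes. Median-of-ratios scaling called 625 genes higher, and 57.0% of its calls were higher, against 40.5%. Quantile normalization called 16 genes of the 6 related lists taken whole, against 9. The labels do not say whether the letters A, B and C pair libraries across genotypes (correlations of deviations -0.03, 0.03 and 0.03). The replicate block gave 929 called genes and 2 skeleton genes, Sptb and Sptan1. The share of Sptb in the FPKM of Sptb and Sptbn1 differed by -15.9 percentage points (Fyco1-/- minus WT). Uncalled markers changed sign: Rgs5 under median-of-ratios scaling (0.0052) and, with libraries left out, Hba-a1 (-0.031 to 0.77), Hbb-bs (-0.40 to 0.24), Rgs5 (-0.14 to 0.13) and Cd34 (-0.19 to 0.022). The causes were not tested. Ank1 rests on the fewest estimated reads of the 9 genes, 541 to 794 per library.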

Other observations

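Genes named for spectrin repeats or for binding spectrin, and standing in no list above, had low levels. Of 8 such genes, picked by name after the lists were set, 7 were tested and limma called 0. They had 1 at an unadjusted p under 0.05 (24.4% over all genes tested). The authors' deposited table called 1 (9.37% of its genes with a value). Sestd1, a protein with spectrin repeats and a lipid-binding domain, had 0.651 ± 0.0646 FPKM in Fyco1-/- and 1.04 ± 0.148 FPKM in WT lenses (log2 fold change -0.41, SE 0.14, limma adjusted p = 0.105). Camsap1, which binds the minus ends of microtubules and can bind spectrin, had 4.72 ± 0.117 FPKM in Fyco1-/- and 5.25 ± 0.584 FPKM in WT lenses (limma adjusted p = 0.408). The nesprin gene Syne1, whose spectrin-repeat protein ties the nucleus to actin, had 1.20 ± 0.242 FPKM in Fyco1-/- and 1.12 ± 0.0632 FPKM in WT lenses (limma adjusted p = 0.824). Lyz2, a myeloid lysozyme gene, was at 23.1 FPKM in WT B and at most 0.554 FPKM in every other library.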
